A study of Homo sapiens with 4 samples.

Results

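The genes described here are those with a bright signal in A549 cells, a human lung adenocarcinoma line, compared between nicotine treated and serum starved cells that had received a control siRNA. Where a gene had several probe sets, the one whose log2 signal was highest on average over 4 arrays was kept, and a gene was called bright when that average was at or above the 75th percentile of all probe sets, a signal of 433.9. This gave 8157 of 19775 genes (41.2%). The dimmest of them were LINC01089, SLC25A45 and TEDC1 (433.9, 434.1 and 434.1), and the brightest genes left out were APBA3, LNX2 and HOXB5 (433.7, 433.5 and 433.3).

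RNA was measured on Affymetrix U133 Plus 2.0 arrays. Cells with a control siRNA and cells with an siRNA directed at ARRB1, which encodes β-arrestin-1, were each hybridized to 1 array when serum starved and to 1 when treated with nicotine. All cells were transfected and then rendered quiescent without serum for 36 h, and the treated cells received 1 µM nicotine for 24 h, per the labels. The labels do not say whether the serum starved cells were harvested at the same time as the treated cells. The siRNA acts in a transient transfection, so that the ARRB1 siRNA cells are not a clone and kept part of the target RNA. With 1 array per condition there was no replicate spread and no test. Differences are therefore described, in log2 units of signal centred on the median of the bright genes, and set beside the SD of the centred differences of the 400 genes nearest in signal, which is a spread between genes and not between samples. Where a gene's signals are listed, the serum starved array comes first and the nicotine treated array second in each pair. All 10 markers of the line were bright, among them KRT8, KRT18, NQO1 and AKR1B10, whereas the markers of leukocytes and endothelium and the lung products SFTPB, SFTPC and SCGB1A1 were not. Among 6 fibroblast markers, only COL1A1 was bright, at 425 to 573 on the 4 arrays.

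Nicotine binds nicotinic acetylcholine receptors, ligand-gated ion channels that are also present on epithelial and lung cancer cells. In such cells the receptors are known to signal through SRC family kinases and β-arrestin-1 to the RB and E2F proteins that control entry into the cell cycle. Serum starvation brings cells to rest, a state in which ribosome production and cell cycle genes are held low, so families of abundant housekeeping genes and of cell cycle genes are both of interest in this comparison.

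The differences between the nicotine and serum starved arrays were small. The middle of the distribution, from the lower to the upper quartile, ran from -0.09 to 0.10, and the SD over all bright genes was 0.17. After centring, 304 genes (3.73%) were higher with nicotine by at least 0.32 on the log2 scale, which is 25% more signal, and 190 (2.33%) were lower by at least 0.32. Without centring these counts were 243 and 258, and with centring on the median of all probe sets they were 203 and 349, so the balance of higher and lower genes turned on the centring. At 1.5-fold the counts were 53 (0.65%) and 16 (0.196%), and at 2-fold 4 (0.049%) and 1 (0.0123%). In ARRB1 siRNA cells, whose pair of arrays shares none with the control pair, 421 of the same genes (5.16%) were higher with nicotine by at least 0.32 and 761 (9.33%) lower. In both pairs 66 genes (0.809%) were higher and 39 (0.478%) were lower by this limit, whereas 34 (0.417%) were higher in control and lower in ARRB1 siRNA cells and 14 (0.172%) the reverse. Across the 8157 genes, which are not independent replicates, the differences of the pairs had a Pearson correlation of 0.17.

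The differences also moved with the signal itself. When the bright genes were divided into 5 equal groups by signal, the median difference lay between -0.03 and -0.01 in the 4 dimmer groups, but in the brightest, with signals from 3940 to 32672, it was 0.06 and 70.2% of the genes were above 0. The SD was 0.22 in the dimmest group and 0.13 in the brightest. Signals of the 4 hybridization control transcripts bioB, bioC, bioD and cre, which are spiked into the sample in set amounts and do not come from the cells, were higher on the nicotine array by 0.34, 0.25, 0.24 and 0.29 on the log2 scale without centring. The ratios of 3′ to 5′ signal lay between 1.29 and 1.38 for ACTB and between 0.885 and 0.940 for GAPDH on the 4 arrays. For this reason each family below is given both as the centred difference and as the difference that was left after a smooth curve over signal had been removed, after which 49.7% of the bright genes were above 0. What part the signal-dependent difference between the arrays had in any family's value was not tested.

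**Figure D1:**
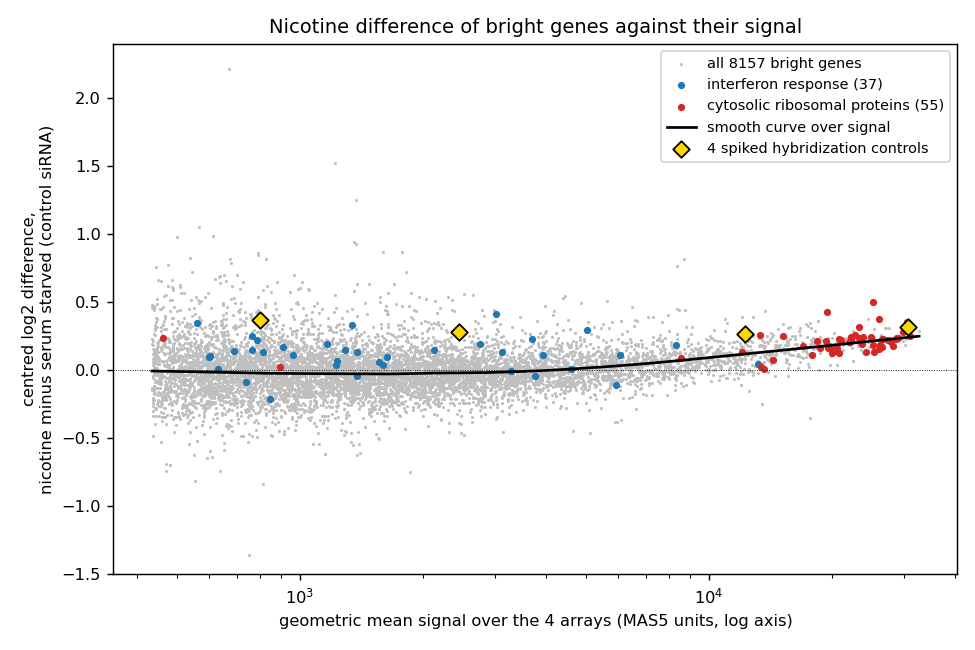
Centred log2 difference (nicotine minus serum starved, control siRNA) of each of the 8157 bright genes against its geometric mean signal over the 4 arrays on a log axis, with the ribosomal protein genes in red, the interferon response genes in blue, a smooth curve in black and 4 spiked control transcripts as diamonds. The curve rises at the bright end, where the 55 ribosomal protein genes lie along it, whereas most of the 37 interferon response genes lie above the curve at lower signals.

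The scatter of single probe sets limits what can be read from any 1 gene. Of 4064 other bright probe sets of 2844 genes, 55.6% were on the same side of 0 as the brightest probe set. Where the brightest was higher by at least 0.32, 66.2% of the others were also above 0 and 15.2% also reached this limit. Where it was lower by at least 0.32, 42.6% of the others were below 0 and 2.13% reached the limit.

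Of 80 gene families, 52 had a median above 0 and 28 below, a balance that turned on the centring, with 31 above and 49 below without it and 22 and 58 when the differences were centred on all probe sets. By the centring on bright genes, 31 were above 0 in both pairs of arrays, 10 were below 0 in both and 39 were of opposite sign. The 7 families with the highest medians in control siRNA cells were the cytosolic ribosomal proteins (0.21), genes of surfactant and lung secretion (0.20), glycolysis enzymes (0.17), S100 proteins and annexins (0.17), NRF2 targets (0.16), enzymes of the pentose phosphate pathway and NADPH supply (0.14), and subunits of respiratory complexes III and IV (0.13). The 7 lowest were collagens and their modifying enzymes (-0.08), translation elongation factors (-0.04), SNAREs and endosomal sorting proteins (-0.04), hypoxia genes (-0.03), YAP and TGF-β targets (-0.03), core histones (-0.03) and RAB GTPases (-0.02). The other 66 medians lay between -0.02 and 0.12.

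**Figure D2:**
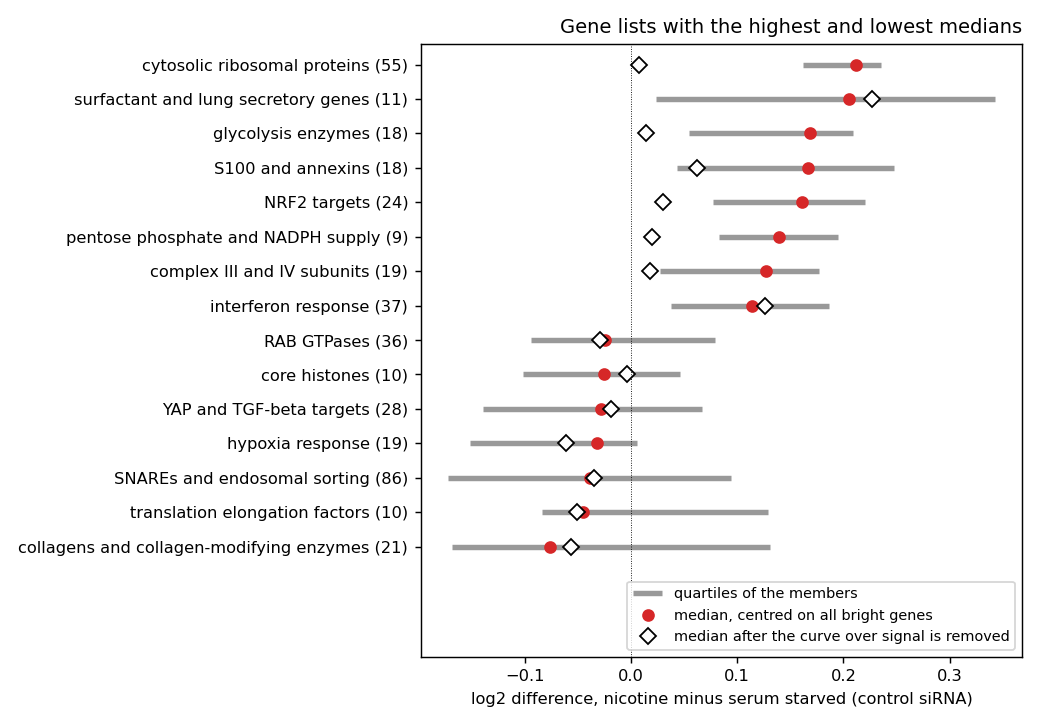
Median log2 difference (nicotine minus serum starved, control siRNA) of the 7 highest and the 7 lowest of 80 gene families and of the interferon response, with the number of bright members after each name. Circles are medians centred on all bright genes, grey bars span the quartiles of the members and diamonds are medians after the curve over signal was removed. The ribosomal protein median goes from 0.21 to 0.01, whereas the medians of the lung secretory and interferon lists stay at 0.23 and 0.13.

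Ribosomal proteins build the ribosome's 2 subunits together with ribosomal RNA, and they are among the most abundant messages of a growing cell. All 55 bright members were above 0, against 50% of all bright genes by the centring, though RPL35A, RPL36 and RPL39L were not without centring or with centring on all probe sets. They ranged from 0.01 to 0.50, and 4 of them were higher by at least 0.32 (3.73% of all bright genes were). RPL41, a small protein of the large subunit, had signals of 19304 and 26759 with control siRNA and of 23127 and 34038 with ARRB1 siRNA, a difference of 0.50 in the control pair where genes of like signal had an SD of 0.09. RPS15A of the small subunit went from 14521 to 19110 (0.42) in the control pair and from 21580 to 23671 in the other. RPL27 had 20169 and 25691 (0.38), and 28333 and 31493. RPS23, a protein of the decoding centre, had 24016 and 30136 (0.36), and 31412 and 38110. On all 4 genes the starved control array was the dimmest of the 4 and the nicotine treated ARRB1 siRNA array the brightest. The same arrays were dimmest and brightest for the spiked transcripts bioB, bioC, bioD and cre. Signals of cre were 25251 and 30790 with control siRNA and 31690 and 36089 with ARRB1 siRNA. Of 37 other bright probe sets of these genes 33 were above 0, and 53 members were above 0 in both pairs of arrays (28.5% of all bright genes were), with a median of 0.28 in ARRB1 siRNA cells. Many ribosomal protein genes have processed copies elsewhere in the genome that the probes may not tell apart.

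Their signals were also the brightest of any family described, with a median of 22224. The 65 other genes at or above the lower quartile of the ribosomal protein signal (19397) were all above 0 as well, with a median of 0.21. In ARRB1 siRNA cells the median of these 65 was 0.23, against 0.29 for the 41 ribosomal protein genes in this range. After removal of the curve over signal the ribosomal protein median was 0.01 in the control pair, with 32 members above and 23 below. It was 0.08 in ARRB1 siRNA cells. In the control pair the 4 named genes were still above 0 by 0.28, 0.24, 0.16 and 0.12.

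Messages of ribosomal proteins share a pyrimidine tract at their 5′ end, through which growth signals control their translation, and the starts of 4 members with the largest differences and a tract in the window are shown for that shared feature. They are taken from RefSeq, build GRCh38.p14, and run from 25 bases before to 20 bases after the annotated start, with the tract in capitals.
RPL41 (chr12:56116608-56116652, plus strand): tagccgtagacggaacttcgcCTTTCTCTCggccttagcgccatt
RPS23 (chr5:82278335-82278379, minus strand): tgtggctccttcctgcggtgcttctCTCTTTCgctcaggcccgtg
RPS6 (chr9:19380217-19380261, minus strand): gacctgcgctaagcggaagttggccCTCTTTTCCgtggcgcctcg
RPL14 (chr3:40457314-40457358, plus strand): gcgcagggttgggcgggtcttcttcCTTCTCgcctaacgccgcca
RPS6, the ribosomal protein phosphorylated by S6 kinases, had a difference of 0.28 with signals of 24394 and 29094, and RPL14 one of 0.26 with 10706 and 12592. A tract, searched as a C followed by at least 5 letters that are each C or T and starting within 10 bases of the start on the sense strand, was found in 42 of the 48 ribosomal protein genes with a RefSeq promoter entry (87.5%), against 24.6% of 27305 genes. RPL36 and RPL35A, the members with differences of 0.01 and 0.03, carry it too. A match describes these letters only.

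Glycolysis enzymes split glucose to pyruvate. Of 18 bright members, 14 were above 0, against 53.2% of the 3742 other genes between the quartiles of their signal (median 0.01). Just 1 member was higher by at least 0.32 (3.73% of all bright genes were). That gene was HK1, a hexokinase of the entry step, with 1397 and 1734 with control siRNA and 1450 and 2071 with ARRB1 siRNA, a difference of 0.34 against an SD of 0.17 for genes of like signal. GPI, which isomerizes glucose phosphate, had 8363 and 9681 (0.24), with 10706 and 12014 in the other pair. ENO1, an enolase, had 16856 and 19450 (0.24), with 20133 and 22361. LDHB, a lactate dehydrogenase chain, had 21018 and 24225 (0.23), with 22814 and 30713. HK1 apart, these are among the genes of highest signal, and the family median of 0.17 became 0.01 after the curve was removed, with HK1 at 0.37, GPI at 0.15, ENO1 at 0.05 and LDHB at 0.02. The glucose transporter SLC2A1 and the regulatory enzyme PFKFB3 were both at -0.09.

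S100 proteins and annexins bind calcium at membranes and the cytoskeleton. Their median was 0.17, with 14 of 18 above 0 and 2 higher by at least 0.32 (3.73% of all bright genes were). Of the 2173 other genes between the quartiles of their signal, 59.2% were above 0 with a median of 0.02. S100A16 had 6220 and 8307 with control siRNA and 8926 and 11147 with ARRB1 siRNA, a difference of 0.45 where the SD of like genes was 0.11. S100A6 had 19283 and 24493 (0.37), with 25077 and 30323 in the other pair. ANXA7 had 4370 and 5307 (0.31), with 5987 and 6278. S100A11 had 12220 and 14749 (0.30), with 16700 and 15941, so its direction in ARRB1 siRNA cells was the other one. After the curve was removed, the median was 0.06 and S100A16 and ANXA7 remained 0.37 and 0.29 above 0.

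NRF2, a transcription factor that KEAP1 holds in check, drives antioxidant genes and is constitutively active in A549 cells because their KEAP1 is mutated. Of 24 bright targets and pathway members 21 were above 0 and none reached 0.32, with a median of 0.16 that became 0.03 without the curve. Of the 742 other genes between the quartiles of their signal, 80.1% were above 0, with a median of 0.08. FTL, the ferritin light chain, had 21570 and 26198 (0.31) in the control pair, and 26035 and 36258 with ARRB1 siRNA. UGDH, which makes UDP-glucuronate, had 10590 and 12595 (0.28), and 14604 and 12716, the opposite direction. NQO1, a quinone reductase, had 21439 and 25027 (0.25), and 22647 and 30030. TXNRD1, a thioredoxin reductase, had 17873 and 20607 (0.23), and 22838 and 25941. The family did not move as a block, since HMOX1, the heme oxygenase that is among the best known targets, was lower with nicotine at 7146 and 6114 (-0.20), and EPHX1, an epoxide hydrolase, had 3694 and 3246 (-0.16).

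Enzymes that supply NADPH overlapped with the NRF2 targets, with PGD, TALDO1 and ME1 in both lists. Of 9 bright members, 7 were above 0 with a median of 0.14, against 54.6% and 0.01 for the 2666 other genes between the quartiles of their signal, and the only one past 0.32 was NNT, the mitochondrial transhydrogenase, with 503 and 716 (0.54) with control siRNA and 448 and 590 with ARRB1 siRNA. TKT, the transketolase, had 22394 and 25950 (0.24), and 24462 and 28457. ME1, the malic enzyme, had 7129 and 7997 (0.19), and 6612 and 7402. PGD, a dehydrogenase of the oxidative branch, had 13421 and 14741 (0.16), and 14951 and 16330. NNT was at 0.55 after the curve was removed, against 0.02 for the family.

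Complexes III and IV pass electrons to oxygen in the mitochondrial inner membrane. Of 19 bright members, 18 were above 0, with a median of 0.13 and of 0.02 without the curve. UQCR11, a small subunit of complex III, had 7086 and 9463 (0.45) with control siRNA but 10115 and 8573 with ARRB1 siRNA. COX7C had 14885 and 17231 (0.24), with 19502 and 20682 in the other pair, COX5A had 15775 and 18075 (0.22), with 21628 and 20845, and UQCRB had 13155 and 14633 (0.18), with 16335 and 15739. Of the 329 other genes between the quartiles of this family's signal, 91.5% were above 0 with a median of 0.11. By contrast, the 76 bright mitochondrial ribosomal proteins, a family of lower signal, had a median of -0.003.

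Genes of lung surfactant and airway secretion were the second highest family, and the only one of the 7 whose median did not drop when the curve was removed (0.20 before and 0.23 after). The list held 40 genes on the array, of which 11 were bright, and 8 of these were above 0. Higher by at least 0.32 were 3 of the 11 (3.73% of all bright genes were). The members that were highest are not surfactant genes. CEACAM5, an adhesion glycoprotein of epithelial and tumour cells, had 469 and 719 with control siRNA, and 453 and 1807 with ARRB1 siRNA, differences of 0.65 and 1.99. CEACAM6, its near relative, had 2146 and 2709 (0.36), and 2862 and 4809 (0.74), so that for both genes the starved array was dimmer than the treated array of its own pair. Their sequences are close enough that probes may be shared. MUC5AC, a gel-forming airway mucin, had 644 and 851 (0.43), but 947 and 559 with ARRB1 siRNA (-0.77), where the direction was reversed. AGR2, which helps fold mucins in the endoplasmic reticulum, had 7720 and 9456 (0.32), against 9042 and 8948. AGR2 was just under the limit, and another bright probe set of it was on the opposite side of 0. Genes of like signal had SDs of 0.20 for CEACAM5 and MUC5AC, 0.13 for CEACAM6 and 0.11 for AGR2. Among 4234 other genes between the quartiles of this list's signal the median was -0.02 and 44.2% were above 0. The median of this list in ARRB1 siRNA cells was -0.14, with 3 of 11 above 0.

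Genes of the interferon response, an antiviral set that interferon receptors turn on, ranked 9th among the 80 families and are described because their median was opposite in sign between the pairs, a choice made after the values were seen. Of 37 bright members 31 were above 0 in control siRNA cells, with a median of 0.11. Higher by at least 0.32 were 3 of them (3.73% of all bright genes were). Their median after the curve was removed was 0.13, the second highest of all families, with 30 above 0. Among 4167 other genes between the quartiles of their signal the median was -0.02 and 43.6% were above 0. Of 11 other bright probe sets of these genes, 10 were above 0. In ARRB1 siRNA cells 4 of the 37 were above 0, 14 were lower by at least 0.32 (9.33% of all bright genes were), and the median was -0.28.

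Antiviral effectors led the list. IFIT1, which binds foreign RNA caps, had signals of 6694 and 8735 with control siRNA and of 1627 and 865 with ARRB1 siRNA, differences of 0.41 and -0.92 where genes of like signal in the control pair had an SD of 0.13. MX1, an antiviral GTPase, had 2937 and 3633 (0.34), and 646 and 472 (-0.46). ISG15, a ubiquitin-like modifier, had 7561 and 9093 (0.29), and 3576 and 2613 (-0.46). In these 3 genes the nicotine treated control siRNA array was highest and the nicotine treated ARRB1 siRNA array lowest. They were named for high differences in the control pair, so the order within that pair follows from the choice. The share of all bright genes with this order was not counted. Over the 37 members the median signals were 2148 and 2161 with control siRNA and 1058 and 993 with ARRB1 siRNA. USP18, the protease that removes ISG15, had 739 and 920 (0.34), and 417 and 345. OAS3, which makes the second messenger of RNase L, had 4819 and 5547 (0.23), and 2833 and 2476.

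Not every member followed this order. IFI27 had 9431 and 8594 (-0.11) with control siRNA and 4590 and 3289 with ARRB1 siRNA, and IFITM1, a membrane protein that blocks virus entry, had 6911 and 6584 (-0.04), and 2926 and 1499 (-0.97). SP100, a nuclear body protein, was lowest at 1247 and 1054 (-0.21), with 678 and 577. The exonuclease ISG20 went the other way, with 1529 and 1454 (-0.04) with control siRNA and 1058 and 1516 (0.51) with ARRB1 siRNA. The difference between the siRNA conditions was not tested.

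**Figure D3:**
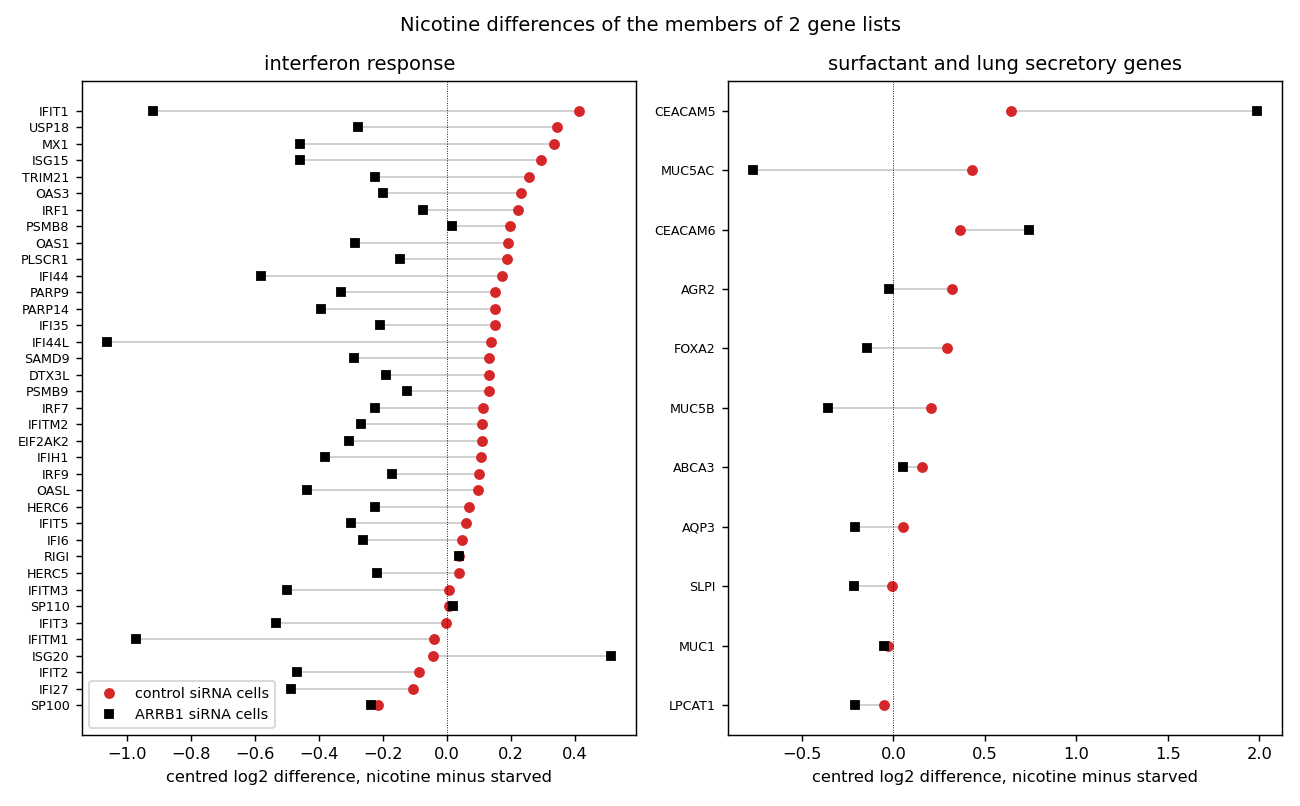
Centred log2 difference (nicotine minus serum starved) of each bright member of the interferon response list (left, 37 genes) and of the surfactant and lung secretory list (right, 11 genes), with circles for control siRNA cells and squares for ARRB1 siRNA cells, 1 pair of arrays each. In the left panel 31 circles but 4 squares lie above 0, and on the right CEACAM5 is above 0 in both pairs at 0.65 and 1.99.

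The response element of interferon-stimulated genes reads GAAA, any 2 letters and GAAA again, or TTTC, any 2 letters and TTTC on the opposite strand, where it can overlap a pyrimidine tract. Parts of the promoters of 4 members are shown because they carry the element, drawn from RefSeq (GRCh38.p14) with the element in capitals and up to 15 bases on each side.
IFIT1 (chr10:89392505-89392544, plus strand): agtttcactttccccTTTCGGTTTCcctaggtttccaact
MX1 (chr21:41431839-41431878, plus strand): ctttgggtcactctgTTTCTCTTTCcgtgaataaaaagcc
ISG15 (chr1:1013375-1013414, plus strand): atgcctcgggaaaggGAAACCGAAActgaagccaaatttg
OAS3 (chr12:112938447-112938473, plus strand): cggagagccgggcggGAAAACGAAAcc
On either strand of the 300 bases that each entry holds, 250 before and 50 after the start, the element was found in 23 of 32 matched members (71.9%) against 4.38% of all 27305 genes and 3.96% of the bright genes with an entry. It was present both in members above 0, such as these 4, and in IFI27, IFITM1 and ISG20, which were below it.

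**Figure D4:**
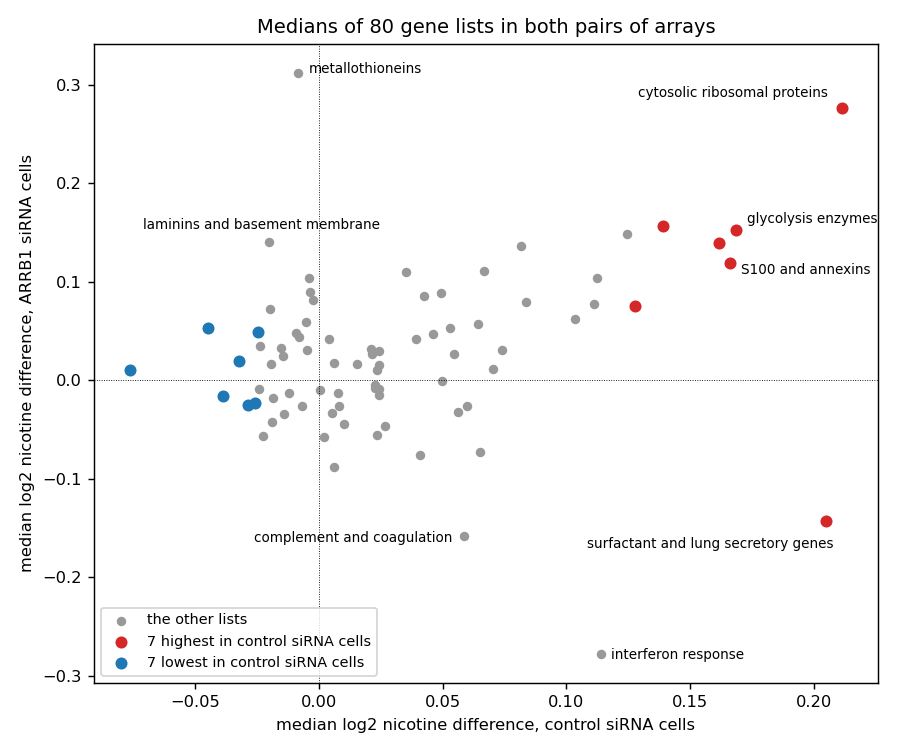
Median centred log2 difference of each of 80 gene families in control siRNA cells (horizontal axis) and in ARRB1 siRNA cells (vertical axis), 1 pair of arrays each, with the 7 highest families in red and the 7 lowest in blue. The ribosomal proteins are at 0.21 and 0.28, whereas the interferon response is at 0.11 and -0.28 and the lung secretory list at 0.20 and -0.14.

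At the low end no family stood far from the other genes. After the curve was removed, the medians were -0.056 for collagens, -0.05 for elongation factors, -0.04 for SNAREs and -0.03 for RAB GTPases. Those of YAP and TGF-β targets and of core histones were -0.02 and -0.004. Collagens and the enzymes that modify them, which build the matrix and basement membranes, had a median of -0.08, with 9 of 21 members above 0. Among the 9 members at or above the 90th percentile of signal the median was 0.04. The 2635 other genes between the quartiles of the family's signal had a median of -0.02, with 43.9% above 0. COL27A1, a fibrillar collagen, had 570 and 447 (-0.32) with control siRNA and 594 and 498 with ARRB1 siRNA. P4HA2, a prolyl hydroxylase that also belongs to the hypoxia genes, had 2035 and 1678 (-0.25), with 1119 and 1074. COL7A1, the anchoring fibril collagen, had 1561 and 1292 (-0.24), with 1665 and 1505, although the median of its probe sets was 0.03. COL12A1 had 636 and 536 (-0.22), with 453 and 405. These genes were named as the lowest in the control pair, and in the other pair the starved array was the brighter one too. However, COL4A1 and COL4A2, the main basement membrane chains, were both at -0.12 in the control pair and at 0.02 in the other. Of all 21 members, 11 were above 0 and 10 below in ARRB1 siRNA cells.

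Hypoxia genes, most of them targets of HIF1, had a median of -0.03 and the lowest share of members above 0, 5 of 19. The 3570 other genes between the quartiles of their signal had a median of -0.01, with 45% above 0. With the curve removed the hypoxia genes were the lowest of all 80 families, at -0.06. VEGFA, the angiogenic growth factor, had 1684 and 1413 (-0.23) with control siRNA and 1671 and 1368 with ARRB1 siRNA, INSIG2 had 689 and 597 (-0.18), with 546 and 569, and P4HA1 had 2044 and 1772 (-0.18), with 1745 and 1766. No member reached 0.32 in either direction, and HIF1A itself was at 0.20 with 17534 and 19750. ARRB1 siRNA cells had a median of 0.02 for this family.

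Translation elongation factors as listed included termination factors and enzymes that modify the factors, and the list's median of -0.04 hides a split. The abundant factors EEF2, EEF1A1 and EEF1D were at 0.28, 0.25 and 0.15, whereas EEF1A2, the isoform of muscle and neurons, was at -0.19 with 1911 and 1645 with control siRNA and 1304 and 1245 with ARRB1 siRNA, EEF1AKMT1, a methyltransferase of EEF1A, was at -0.25 with 574 and 474, then 498 and 527, EEF2K, the kinase that inhibits EEF2, was at -0.09, and ETF1, the release factor, was at -0.06. Among the 5 members at or above the 90th percentile of signal, the median was 0.14. The 6098 other genes between the quartiles of this list's signal had a median of -0.005, with 48.4% above 0. In the brightest of the 5 signal groups 70.2% of all genes were above 0. Whether the split among the factors goes beyond their signal was not tested.

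Membrane traffic supplied a pair of the low families. SNAREs and endosomal sorting proteins, which fuse vesicles with their targets, had a median of -0.04 with 37 of 86 above 0. The 3912 other genes between the quartiles of their signal had a median of -0.02, with 44.1% above 0. For the SNARE list, 12 of 44 other probe sets were above 0. STX8, an endosomal SNARE, had 4097 and 2926 (-0.46) with control siRNA and 3392 and 2369 with ARRB1 siRNA. STX12 had 935 and 695 (-0.40), with 1381 and 1008, VPS13C, a lipid transport protein, had 3833 and 3041 (-0.31), with 2366 and 1673, and VAMP2 had 719 and 576 (-0.29), with 555 and 515. These 4 were named as the lowest members in the control pair, and in the ARRB1 siRNA pair the nicotine treated array was the dimmer one too. Of all 86 members, 41 were above 0 and 45 below in ARRB1 siRNA cells. In both pairs 31 were below 0 (28.5% of all bright genes were). RAB GTPases, the switches of the same pathways, had a median of -0.02 with 16 of 36 above 0. This was close to the 3038 other genes between the quartiles of their signal (median -0.02, 42.4% above 0). RAB40C had 793 and 619 (-0.33), with 850 and 759, RAB29 had 2040 and 1609 (-0.31), with 1394 and 1405, RAB18 had 5840 and 4718 (-0.28), with 5529 and 5747, and RAB24 had 1021 and 871 (-0.20), with 962 and 1026. For RAB18 and RAB29 none of the other bright probe sets was on the same side, and the median of the RAB18 probe sets was 0.04.

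YAP and TGF-β targets, growth control and matrix genes, had a median of -0.03 with 12 of 28 above 0. The 3131 other genes between the quartiles of their signal had a median of -0.02, with 44% above 0. In the YAP and TGF-β list 3 genes were lower by at least 0.32 (2.33% of all bright genes were). Inhibitors of SMAD signaling were among the lowest members. SKIL had 3425 and 2439 (-0.46) with control siRNA and 2402 and 1869 with ARRB1 siRNA, SMAD7 had 662 and 512 (-0.34), with 491 and 543, and the angiomotin AMOTL1 had 1151 and 888 (-0.35), with 911 and 890. BMP4, a ligand of the same superfamily, had 1027 and 809 (-0.315, just short of the limit), with 759 and 579. TGFBI, named for its induction by TGF-β, was at 0.25 with 14088 and 16409. Core histones, which package DNA and were listed with the linker histones and H2AX, had a median of -0.03, and of 0.02 among 4 members at or above the 90th percentile of signal. H2AC25 alone was lower by more than 0.32, and H2AC6, H2BC9 and H2BC12 followed at -0.16, -0.12 and -0.05. Histone messages without a poly(A) tail are poorly captured by the labelling, which starts from the tail.

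Single genes with the largest differences belonged to none of the high families. The 12 highest bright genes lay between 0.83 and 2.22, where genes of like signal had SDs of 0.16 to 0.24, and 6 of them were read by probe sets of a relaxed design, by the suffix of their names, most of which can match several transcripts. Just 1 of these genes had another bright probe set. CACNG4, an auxiliary subunit of calcium channels and glutamate receptors, had 213 and 969 with control siRNA and 1111 and 887 with ARRB1 siRNA (2.22). KLHL36, a kelch protein, had 708 and 1997 (1.52), with 2193 and 707. APEX2, a DNA repair nuclease, had 757 and 1764 (1.249), with 1600 and 1663. In these 3 the starved control array was the dimmer by far of its pair, while the starved ARRB1 siRNA array had a signal near that of the nicotine treated control array.

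E2F1, the transcription factor that RB restrains, had 362 and 738 (1.05), with 545 and 709 with ARRB1 siRNA. Its other bright probe set had 513 and 550, with 532 and 628, a much smaller difference in the same direction. MACROH2A2, a variant histone of silent chromatin, had 279 and 540 (0.98), with 645 and 647. SCML2, a polycomb protein, had 1154 and 2068 (0.87), with 2040 and 2058, and REST, the repressor of neuronal genes, had 545 and 971 (0.86), with 1067 and 684. For MACROH2A2 and SCML2 the 3 arrays other than the starved control array gave signals closer to each other than to it.

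MAP2K5, the kinase that activates ERK5, had 450 and 875 (0.99), with 595 and 607. GALNT14, which starts O-linked glycans, had 948 and 1783 (0.94), with 1230 and 1634, and CNOT3, a subunit of the CCR4-NOT deadenylase, had 614 and 1085 (0.85), with 669 and 876. KLC2, a kinesin light chain, had 1102 and 1976 (0.87), with 1869 and 1588, and GET4, which hands on tail-anchored membrane proteins, had 389 and 677 (0.83), with 542 and 588. Of the 12, 7 were above 0 in ARRB1 siRNA cells (50% of all bright genes were). Among them E2F1, GALNT14 and CNOT3 were higher by at least 0.32 there too (5.16% of all bright genes were). In the same cells CACNG4, KLHL36 and REST were lower by at least 0.32 (9.33% of all bright genes were).

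The 12 lowest genes lay between -1.36 and -0.62. UBE2NL, an intronless copy of the ubiquitin-conjugating enzyme gene UBE2N, had 1066 and 407 with control siRNA and 805 and 896 with ARRB1 siRNA (-1.36). Its probe set can match several transcripts, so the source of this signal is uncertain. C6orf136 had 980 and 537 (-0.84), with 883 and 927. MANBA, the lysosomal β-mannosidase, had 651 and 363 (-0.81), with 766 and 516, and was thus lower with nicotine in both pairs. SOCS4, a suppressor of cytokine signaling, had 2431 and 1421 (-0.75), with 1908 and 1819. GAB2, a docking protein of growth factor receptors, had 583 and 342 (-0.74), with 490 and 506. ITSN1, a scaffold of endocytosis, had 829 and 487 (-0.74), with 543 and 748 with ARRB1 siRNA, where the order of the arrays was the opposite one.

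SCYL3, a pseudokinase, likewise had 636 and 385 (-0.70), with 368 and 595. FBXW7, the ubiquitin ligase subunit that marks MYC and cyclin E for destruction, had 725 and 442 (-0.69), with 431 and 357. FBLN1, the matrix protein fibulin 1, had 788 and 494 (-0.65), with 538 and 584. H2AC25, a histone H2A gene, had 716 and 452 (-0.64), with 647 and 654, SH3D19 had 2007 and 1277 (-0.62), with 1428 and 981, and TMEM54 had 825 and 525 (-0.62), with 444 and 473. Of the 12, 4 were below 0 in ARRB1 siRNA cells, where 50% of all bright genes were above it. There MANBA and SH3D19 were lower by at least 0.32 (9.33% of all bright genes were), and ITSN1 and SCYL3 were higher by at least 0.32 (5.16% of all bright genes were).

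**Figure D5:**
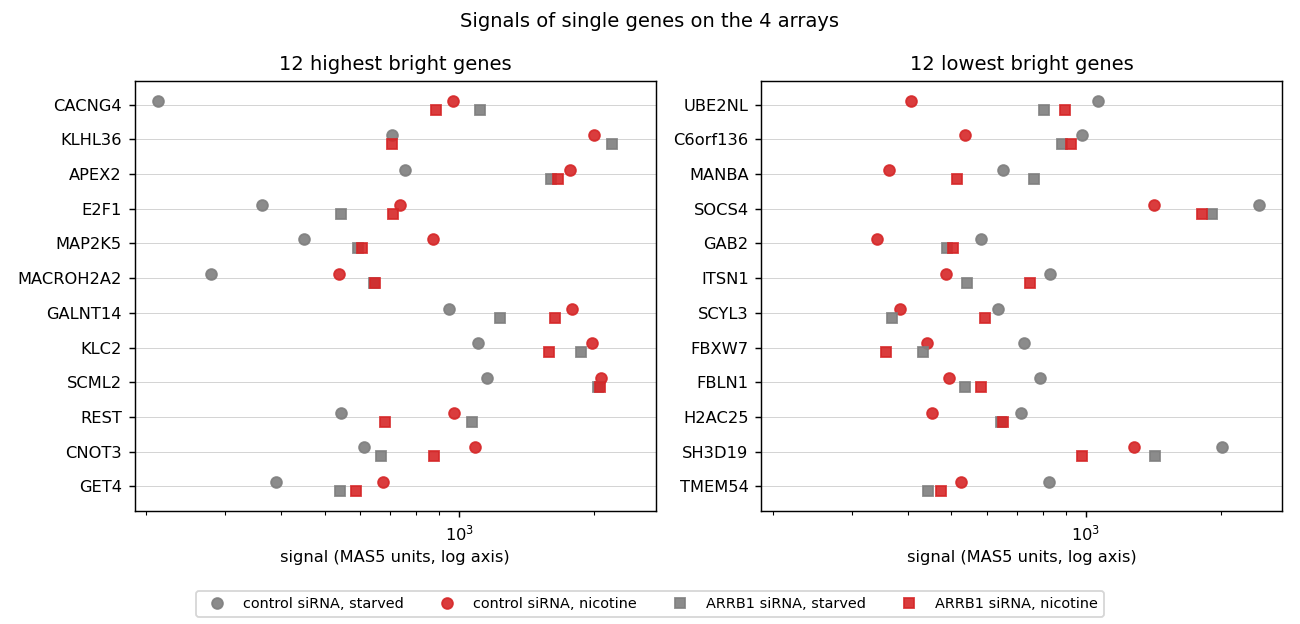
Signal (MAS5 units, log axis) of the 12 highest bright genes (left) and the 12 lowest (right) on each of the 4 arrays, with circles for control siRNA and squares for ARRB1 siRNA cells and with grey for serum starved and red for nicotine. KLHL36 has 708 and 1997 in control but 2193 and 707 with ARRB1 siRNA, and MANBA is dimmer with nicotine in both.

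At their brightest probe sets, the other genes of the study's question differed less than E2F1. KITLG, the stem cell factor, had 1847 and 1636 with control siRNA and 1332 and 1349 with ARRB1 siRNA, a difference of -0.15 against an SD of 0.16 for genes of like signal. Its 3 other probe sets were far below the brightness limit, with signals of at most 49.2, and did not share a direction. The one with the widest spread had 1.56 and 14.2 with control siRNA and 3.45 and 2.19 with ARRB1 siRNA. SRC, the kinase, had 4201 and 4534 (0.14), with 4039 and 3378, and RB1, the retinoblastoma gene, had 2218 and 2271 (0.06), with 2661 and 2044. EGFR, the EGF receptor, had 1835 and 1924 (0.10) at its brightest probe set, with 1844 and 1654, while another of its bright probe sets had 1142 and 1569, with 1084 and 1846. Thus the EGFR probe sets gave unequal differences. ARRB1 was below the brightness limit, with 352 and 331 with control siRNA and 191 and 224 with ARRB1 siRNA at its brightest probe set. The next brightest had 224 and 180 with control siRNA and 233 and 194 with ARRB1 siRNA, and so was no lower with the siRNA. All its other probe sets, dimmer still, were lower with ARRB1 siRNA under both treatments, at 0.09 to 0.85 of the control siRNA signal. The brightest of these had 187 and 234 with control siRNA and 110 and 139 with ARRB1 siRNA. In a bulk sample a lower signal from fewer cells and from less RNA in each cell cannot be told apart.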

How the data were processed

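Total RNA of A549 cells was hybridized to 4 arrays, 1 per condition, which were mapped to conditions from the labels. The deposited values are linear signal intensities that the authors made with MAS5 in GCOS 1.4, per the submitters' processing notes, scaled to the same trimmed mean on each array (500.1). The paper's methods name a log2 transformation and gene centring, which the deposited intensities do not hold. Detection calls were not used here.

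The arrays hold 54675 probe sets, 62 of them controls that were not used. Among the remaining 54613, 41091 carried 1 gene symbol in the annotation, 1801 several and 11721 none, and 41037 symbols were updated through the gene ID. Signals were log2 transformed and differences centred on the median of the bright genes (-0.03 before centring) in Python 3.11.15 (numpy 2.4.6, pandas 2.3.3). The smooth curve was a locally weighted regression with a span of 0.3 (statsmodels 0.14.6), and figures were drawn with matplotlib 3.10.9. The steps were tested on simulated data. The number of arrays, 1 per condition, limits the precision, and no p-value is given.

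Named genes were the 12 highest and 12 lowest bright genes (leaving out a gene with a bright probe set on the opposite side of 0, which removed 1 higher gene), up to 4 members of each of the 7 highest and 7 lowest families in the direction of the median, and genes of the study's question. ARRB2, also of that question, had no probe set with a single symbol. Other members, and the interferon genes, were named after their values were seen. Families needed 6 bright members. The members and lists were chosen with earlier results of these data known. Alternatives were 2 other centrings, quantile normalization, the curve, the median over probe sets, leaving out _x_at probe sets, the 50th and 90th percentiles, a choice of probe sets on the ARRB1 siRNA arrays, and 1.5-fold and 2-fold limits. Ranking with the curve removed, the interferon list and the motif searches were added after the data were seen.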

Additional observations from a re-analysis of the deposited data

Results flagged for a closer look

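Values in opposite directions in the pairs of arrays were looked for among the families and named genes. They were common, with medians of opposite sign in 39 of 80 families, so the items given here are a selection. Families left out include complement and coagulation genes (0.06 in control and -0.16 in ARRB1 siRNA cells) and collagens (-0.08 and 0.01). None of these differences between siRNA conditions was tested, since each pair is 1 array against 1. The interferon response had a median of 0.11 in control siRNA cells and -0.28 in ARRB1 siRNA cells, and the surfactant and lung secretory list 0.20 and -0.14. The single genes listed differed by at least 0.32 in opposite directions in the pairs. Genes short of this limit in either pair, such as UBE2NL (-1.36 and 0.15) and UQCR11 (0.45 and -0.25), are not listed. KLHL36 was at 1.52 and -1.64, CACNG4 at 2.22 and -0.33, and REST at 0.86 and -0.65. ITSN1 was at -0.74 and 0.45, SCYL3 at -0.70 and 0.69, and the mucin MUC5AC at 0.43 and -0.77. MUC5AC, KLHL36, CACNG4, REST and SCYL3 rest on 1 bright probe set each.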

How the results depend on the processing

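The number of bright genes higher and lower by at least 0.32 (304 and 190) became 1173 and 792 at the 50th percentile limit, 78 and 33 at the 90th, 53 and 16 at 1.5-fold, and 4 and 1 at 2-fold, and the lower count was 349 with centring on all probe sets. The fall in counts with a higher fold limit or fewer genes follows from those settings, and the cause of the others was not tested. No alternative in centring or normalization turned the median of any of the 15 described families, but of all 80 it turned 21 without centring, 30 with centring on all probe sets, 13 after quantile normalization and 18 after removal of the curve. At the 90th percentile limit, the medians of collagens (0.044), elongation factors (0.14) and core histones (0.018) changed sign. With the median over probe sets COL7A1 (0.025) and RAB18 (0.036) changed sign, and no other of the 82 genes named by the rule did so under those of the 9 alternatives in which it was present (37 genes at the 90th percentile limit, 76 without _x_at probe sets and 80 with probe sets chosen on the ARRB1 siRNA arrays). Outside those 82, RPL35A, RPL36 and RPL39L fell below 0 without centring and with centring on all probe sets, and the other genes named by list were not compared in this way.

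Without centring the ribosomal proteins were at 0.18 and the SNAREs at -0.068. Centring on all probe sets moved 14 of the 15 described lists, to 0.16 for ribosomal proteins, 0.15 for lung secretory genes, 0.11 for glycolysis, 0.11 for S100 proteins and annexins, 0.11 for NRF2 targets, 0.0722 for complexes III and IV, 0.058 for the interferon response, -0.13 for collagens, -0.10 for elongation factors, -0.094 for SNAREs, -0.088 for hypoxia genes, -0.084 for YAP and TGF-β targets, -0.081 for core histones and -0.0801 for RAB GTPases. Quantile normalization gave 0.026 for ribosomal proteins, 0.019 for glycolysis, 0.061 for S100 proteins and annexins, 0.0505 for NRF2 targets, 0.043 for NADPH supply and 0.038 for complexes III and IV, and removal of the curve over signal gave 0.0074, 0.014, 0.063, 0.030, 0.0198 and 0.0181 in the same order. Medians over probe sets gave 0.15 for lung secretory genes, 0.10 for glycolysis and 0.0701 for complexes III and IV, which were at 0.0720 without _x_at probe sets. Lung secretory genes were at 0.13 and 0.11 at the 50th and 90th percentile limits, S100 proteins and annexins at 0.11 and 0.21, and collagens at -0.0045 at the 50th. Choosing probe sets on the ARRB1 siRNA arrays, which the comparison does not use, moved none of the 15 described families. With the median signal of the bright probe sets on each array, E2F1 was at 0.59 and EGFR at 0.48. For EGFR this was the probe set of middle signal, with 1142 and 1569 in the control pair. The other bright EGFR probe sets differed by only 0.07 and 0.008 without centring. No replicate was left out. No paired analysis was possible because each condition has 1 array and the comparison comes from no test.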

Other observations

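Outside the families already described, keratins and epithelial intermediate filaments had a median of 0.12 (9 of 11 above 0), actin, myosin and their regulators 0.10 (38 of 50) and ATP synthase subunits 0.11 (15 of 17), which became 0.03, 0.02 and 0.01 after the curve over signal was removed. Stemness factors and surface markers were at 0.07 before and 0.06 after, with 13 of 18 above 0, and at -0.07 in ARRB1 siRNA cells. Complement and coagulation genes had a median of 0.06 in control siRNA cells, with 15 of 20 above 0. After the curve was removed it was 0.01, with 11 above 0. Higher by at least 0.32 on the log2 scale before that removal were 3 of them (3.73% of all bright genes were). The median in ARRB1 siRNA cells was -0.16. The 6 bright metallothioneins, metal-binding stress proteins, were at -0.01 in control siRNA cells but at 0.31 in ARRB1 siRNA cells, the highest median of any family there. DNA replication genes (54 bright members) and mitosis genes (72) were at 0.01 and 0.02.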
